A study of Mus musculus with 16 samples.

Results

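The miR-200 family comprises 5 miRNAs that are abundant in epithelial cells, and miR-205 is an unrelated miRNA that shares some of their targets. These 6 miRNAs were followed here among the 611 mouse miRNAs with probes on the arrays, by their names miR-200a, miR-200b, miR-200c, miR-141, miR-429 (the 3p arm, which is the guide strand) and miR-205 (the 5p arm). Total RNA from lungs of BALB/c mice aged 8 to 12 weeks was hybridised to Agilent 1-colour miRNA microarrays, with 6 arrays of OVA/OVA lungs, 4 each of OVA/OVA DEX and PBS/OVA lungs, and 2 of PBS/PBS lungs. PBS/PBS mice were given PBS at sensitisation and at challenge. PBS/OVA mice were given PBS at sensitisation and ovalbumin (OVA, an egg white protein used as the allergen) at challenge, and OVA/OVA mice were given OVA at both. OVA/OVA DEX mice were treated in addition with 3 mg/kg dexamethasone (DEX, a synthetic glucocorticoid), from day 11. All groups received 1 mg of the adjuvant Alhydrogel on day 0, together with 50 μg OVA in the sensitised groups, and challenges of 10 μg OVA ran from day 12 to day 15. Lungs were taken on day 16, that is 24 hours after the last challenge. The methods text describes OVA challenge of all mice, whereas the sample labels give PBS as the challenge of PBS/PBS, and the labels were followed. Neither source says that each array is 1 animal, so the p-values below measure the spread between these arrays, which may in part be technical. The RNA came from whole lung, and fewer cells of a type and less RNA per cell cannot be told apart in it.

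A miRNA guides the RNA-induced silencing complex to mRNAs that pair with its seed, bases 2 to 8 counted from the 5′ end, and lowers their translation and stability. The miR-200 family is best known for repressing Zeb1 and Zeb2, transcription factors that silence E-cadherin and other epithelial genes, and thereby for holding cells in the epithelial state. In the lung, it is found in the airway and alveolar epithelium. miR-205 represses the same pair of factors and is characteristic of basal cells of stratified and pseudostratified epithelium.

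The mature sequences, taken from RefSeq with coordinates on GRCm38.p6, are shown because both the seed and the gene of origin divide the family, and the results are given by gene of origin. Capitals mark the seed.
miR-200b-3p: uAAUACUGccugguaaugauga
miR-200c-3p: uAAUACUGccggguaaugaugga
miR-429-3p: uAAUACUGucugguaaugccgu
miR-200a-3p: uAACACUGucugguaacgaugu
miR-141-3p: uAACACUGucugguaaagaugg
miR-205-5p: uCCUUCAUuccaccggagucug
By seed, miR-200b, miR-200c and miR-429 form a set of 3 with AAUACUG, and miR-200a and miR-141 a set of 2 with AACACUG. The seeds differ at a single base, U4C, when miR-200b-3p is compared with miR-200a-3p and positions are counted from 1 at the 5′ end. No other mature mouse miRNA among the 1738 in the RefSeq table carried either seed. By gene, the division is another one. Mir200b (chr4:156055681-156055750), Mir200a (chr4:156054896-156054985) and Mir429 (chr4:156053905-156053987) lie on the minus strand within 1846 bases, and Mir200c (chr6:124718322-124718390) and Mir141 (chr6:124717914-124717985) lie on the minus strand within 477 bases. Mir205 (chr1:193507463-193507530) lies alone. Each seed set therefore has a member in each cluster. The closest relatives are found across the clusters: miR-200b-3p and miR-200c-3p share 20 of their first 22 bases (differing by U11G and A22G), and miR-200a-3p and miR-141-3p share 20 of 22 (differing by C17A and U22G). Probes for such close relatives could each take up some of the other's RNA on the array, and how much was not tested.

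The intensities of the arrays were not alike. The 75th percentile of signal, taken over 206 miRNAs that all 16 arrays detected, was widest in OVA/OVA, at 814 to 2375. It was 1408 to 1915 in OVA/OVA DEX, 1700 to 2253 in PBS/OVA, and 2609 and 3169 in PBS/PBS. The lowest values belonged to OVA/OVA, and each array was divided by this percentile before groups were compared. Levels are given below as the log2 of this scaled signal, and a difference of 1 is 2-fold. The arrays lay on 2 slides, with both PBS/PBS arrays on slide 1 and the other 3 groups on both slides. Between 224 and 301 mouse miRNAs were detected on an array. With 2 to 6 arrays a group, the precision of each comparison is limited by their number.

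All 5 miR-200 family members were detected on all 16 arrays, and miR-205-5p was detected on 1. The scaled log2 signal of miR-205-5p lay between the floor of 0.77 (the lower limit set for scaled signals) and 4.38, and its only detection was the highest of these values, in PBS/PBS replicate 2. The other PBS/PBS array read 2.67, not above background. miR-205-5p was therefore left out of all tests, and no difference between groups could be measured for it.

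**Figure D1:**
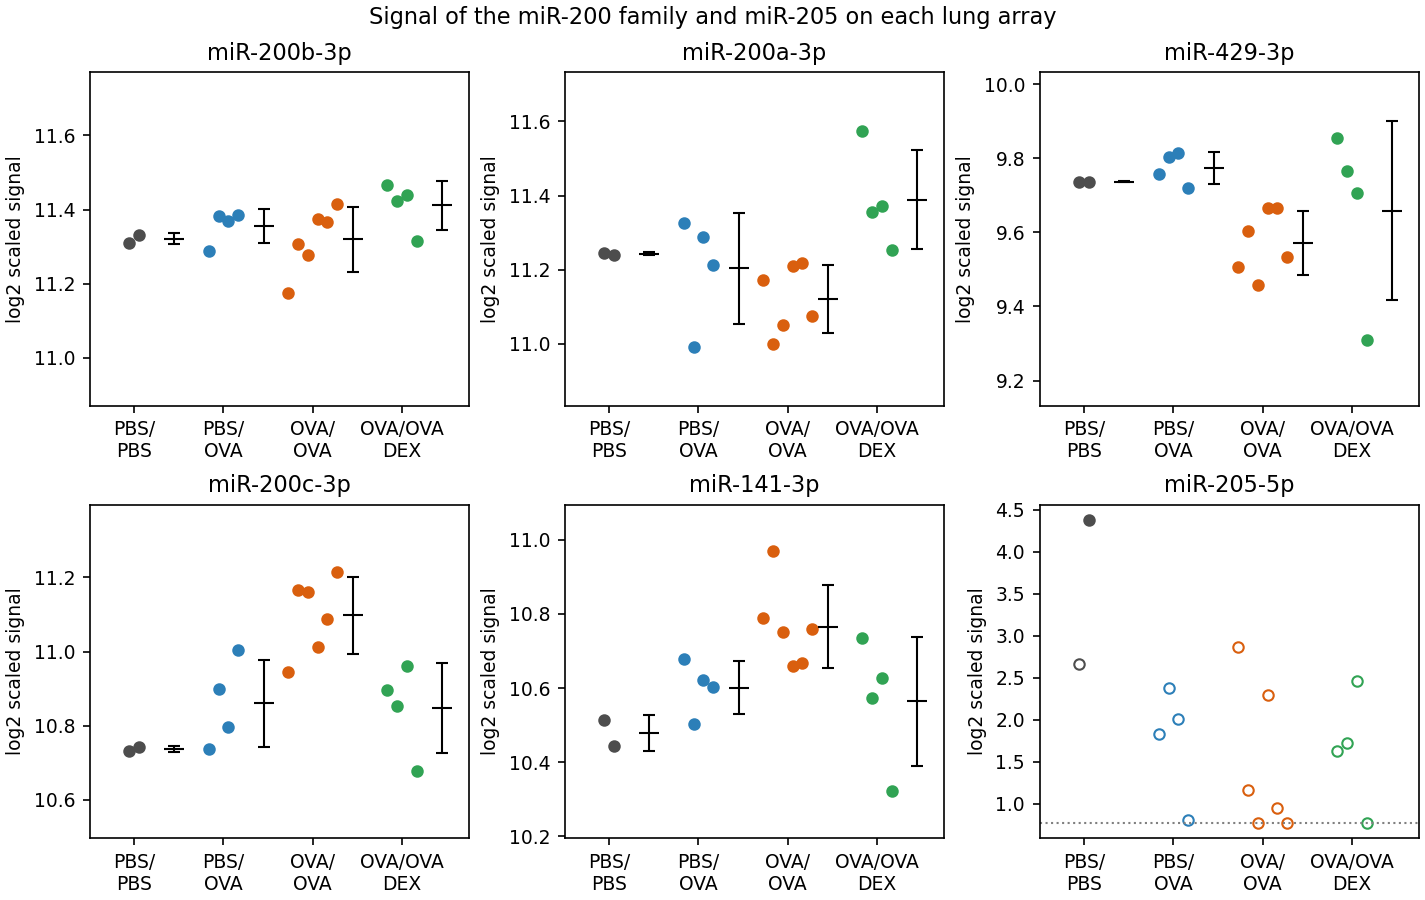
Log2 scaled signal (y axis) of the 6 miRNAs on each array, by group (x axis). Each point is 1 array, filled where the miRNA was detected and open where it was not, bars show mean ± SD, and the dotted line in the miR-205-5p panel is the floor. The panels of the miR-200 family span 0.9 on the log2 scale. With this scaling miR-200c-3p and miR-141-3p were highest in OVA/OVA (without scaling they were not), the lowest miR-200a-3p value was on a PBS/OVA array (10.99) and the lowest miR-429-3p value on an OVA/OVA DEX array (9.31).

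Of the chromosome 6 cluster, miR-200c-3p was higher in OVA/OVA lungs than in each other group, by less than 2-fold, with the scaling described (without scaling, and with scaling by control spots, it was lower, as given below). The log2 signal of miR-200c-3p was 10.73 and 10.74 in PBS/PBS. It was 10.74, 10.90, 10.80 and 11.01 in PBS/OVA, and 10.90, 10.85, 10.96 and 10.68 in OVA/OVA DEX. In OVA/OVA it ranged from 10.94 to 11.22, with a median of 11.12. Both PBS/PBS arrays lay below the OVA/OVA range, while the lowest OVA/OVA arrays overlapped the top of PBS/OVA and of OVA/OVA DEX. The difference from PBS/PBS was 0.36 ± 0.10 (SE, 1.28-fold), with a limma adjusted p of 0.0172 over the 266 miRNAs tested. The difference from PBS/OVA was 0.24 ± 0.08 (SE, 1.18-fold, limma adjusted p = 0.0324), and the difference from OVA/OVA DEX was 0.25 ± 0.08 (SE, 1.19-fold, limma adjusted p = 0.0143). The order of the group means was PBS/PBS (10.74), OVA/OVA DEX (10.85), PBS/OVA (10.86) and OVA/OVA (11.10), and among neighbours in this order PBS/OVA and OVA/OVA passed the test. With array intensity as a covariate, the differences of OVA/OVA from PBS/PBS, then PBS/OVA, then OVA/OVA DEX became 0.19, 0.16 and 0.20, and that from OVA/OVA DEX alone passed. The first is an extrapolation, since both PBS/PBS arrays were brighter than every other array. Leaving out PBS/PBS replicate 1 or 2 ended the call against PBS/PBS (differences of 0.35 and 0.37), and leaving out PBS/OVA replicate 1 or 3, or OVA/OVA replicate 2, 3 or 6, ended that against PBS/OVA (0.20 to 0.22). The call against PBS/OVA was also lost with a fit of these 2 groups alone (limma adjusted p = 0.0540) and with the exact Mann-Whitney test (adjusted p = 0.0685).

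miR-141-3p, which is processed from the same cluster, had the same order of levels with the scaling used, and its differences did not pass the test (they were negative without scaling, with a percentile of all miRNAs and with control spot scaling). Its log2 signal was 10.51 and 10.44 in PBS/PBS, 10.68, 10.50, 10.62 and 10.60 in PBS/OVA, and 10.73, 10.57, 10.63 and 10.32 in OVA/OVA DEX. In OVA/OVA it ranged from 10.66 to 10.97, with a median of 10.76. PBS/PBS lay below the OVA/OVA range, and 1 array each of PBS/OVA and OVA/OVA DEX reached into their range. OVA/OVA exceeded PBS/PBS by 0.29 ± 0.10 (SE, limma adjusted p = 0.0561), PBS/OVA by 0.16 ± 0.08 (adjusted p = 0.134) and OVA/OVA DEX by 0.20 ± 0.08 (adjusted p = 0.0524). The last of these rested on single arrays: it was 0.12 (limma adjusted p = 0.180) without OVA/OVA DEX replicate 4, and 0.26 (limma adjusted p = 0.0258) without OVA/OVA DEX replicate 1. It passed, too, without OVA/OVA replicate 4 or 5 (0.22 for each), with no floor (limma adjusted p = 0.0492), over miRNAs detected on all arrays (0.0431) and with trended and robust variances (0.0384). The difference from PBS/PBS passed with the last 2 of these settings (limma adjusted p = 0.0452 and 0.0430) and with 5 of the 16 arrays left out in turn.

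No member of the chromosome 4 cluster rose by the test. miR-200a-3p fell in OVA/OVA against OVA/OVA DEX, and its difference was negative with each scaling tried. Its log2 signal was 11.57, 11.36, 11.37 and 11.25 in OVA/OVA DEX, against 11.00 to 11.22 with a median of 11.12 in OVA/OVA. The 2 groups did not overlap, and the difference was -0.27 ± 0.08 (SE, lower in OVA/OVA, limma adjusted p = 0.0141). Without OVA/OVA DEX replicate 1 the difference was -0.21 and no longer passed, and with quantile normalization it was -0.06. The signal was 11.25 and 11.24 in PBS/PBS and 11.33, 10.99, 11.29 and 11.21 in PBS/OVA. Both PBS/PBS arrays lay above all OVA/OVA arrays, and PBS/OVA overlapped them. OVA/OVA differed from these groups by -0.12 ± 0.10 (SE, limma adjusted p = 0.370) and -0.08 ± 0.08 (SE, adjusted p = 0.439). From the lowest mean to the highest, the order was OVA/OVA (11.12), PBS/OVA (11.20), PBS/PBS (11.24) and OVA/OVA DEX (11.39). No neighbours in this order differed by the test.

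miR-429-3p lay at 9.46 to 9.67 in OVA/OVA, with a median of 9.57. It was 9.74 on both PBS/PBS arrays and 9.76, 9.80, 9.81 and 9.72 in PBS/OVA, all above the OVA/OVA arrays. The differences of -0.16 ± 0.11 (SE) and -0.20 ± 0.09 (SE) did not pass the test, with limma adjusted p of 0.291 and 0.102. The second, from PBS/OVA, passed with quantile normalization (-0.27, limma adjusted p = 0.0358), with a fit of the 2 groups alone (limma adjusted p = 0.0424), with the exact Mann-Whitney test (adjusted p = 0.0478) and without OVA/OVA DEX replicate 4 (limma adjusted p = 0.0174). In OVA/OVA DEX the values were 9.85, 9.77, 9.71 and 9.31, so that 3 arrays lay above and 1 below all OVA/OVA arrays, and the difference was -0.09 ± 0.09 (SE, adjusted p = 0.442). Without the low array, replicate 4, the difference from OVA/OVA DEX was -0.20 and passed (limma adjusted p = 0.0164), and over all arrays left out in turn it ran from -0.20 to -0.022. With the scaling used, miR-200b-3p was the steadiest member. It was 11.31 and 11.33 in PBS/PBS, 11.29, 11.38, 11.37 and 11.39 in PBS/OVA, 11.18 to 11.42 with a median of 11.34 in OVA/OVA, and 11.47, 11.42, 11.44 and 11.32 in OVA/OVA DEX. Every group overlapped OVA/OVA, and the differences of OVA/OVA were -0.00 ± 0.07 (SE) from PBS/PBS, -0.04 ± 0.06 (SE) from PBS/OVA and -0.09 ± 0.06 (SE) from OVA/OVA DEX. Over the 16 arrays its SD was 0.07, the 2nd lowest of the 206 miRNAs detected on all arrays. The SDs of the other 4 members were between 0.15 and 0.17, against a median of 0.23 over those miRNAs. The scaling percentile was taken over the same 206 miRNAs, and its part in these low SDs was not tested.

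**Figure D2:**
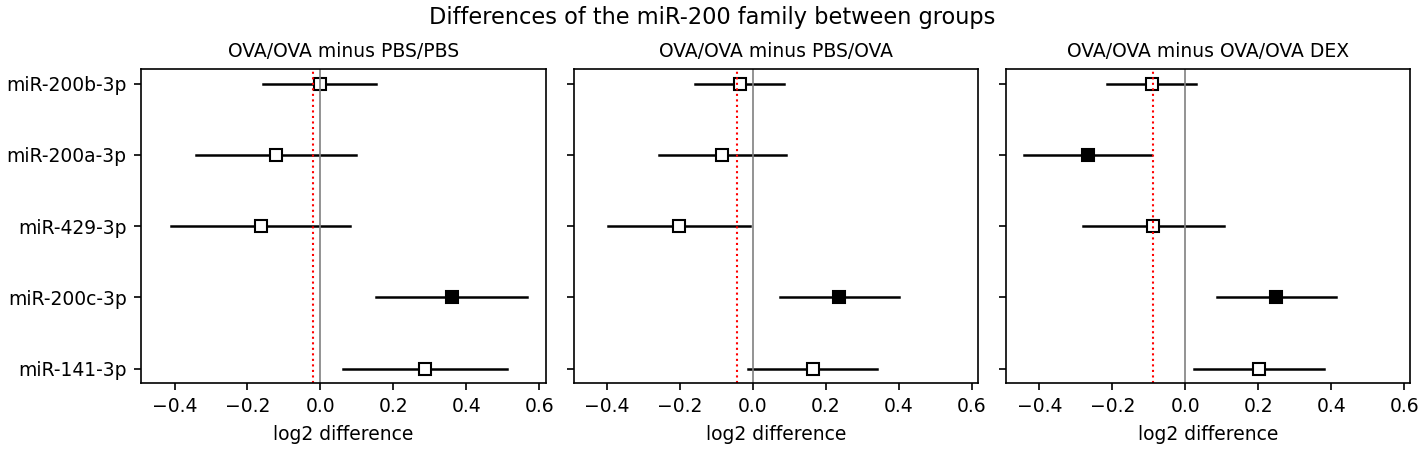
Log2 difference (x axis) of each miR-200 family member between OVA/OVA and the other groups. Squares are limma estimates, filled where the adjusted p is under 0.05, lines are 95% confidence intervals, and the red dotted line is the median of the 266 miRNAs tested. miR-200c-3p was filled in all 3 panels (0.36, 0.24 and 0.25), and miR-200a-3p in the panel of OVA/OVA DEX (-0.27).

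Counted over the family, 1 of 5 members passed an adjusted p of 0.05 in OVA/OVA against PBS/PBS, where 25.6% of the miRNAs tested did. The arrays of these groups did not overlap for 4 of 5 members, against 51.5% of those tested. Against PBS/OVA, 1 of 5 passed, where 31.6% of those tested did, and 1 of 5 did not overlap, against 19.9%. Against OVA/OVA DEX, 2 of 5 passed, 1 in each direction, where 53.4% of those tested did, and 1 of 5 did not overlap, against 31.2%. None of the 5 reached a change of 2-fold with an adjusted p under 0.05, which 9.77%, 5.26% and 12.8% of those tested did in the 3 comparisons. The median differences of the 5 members were -0.00, -0.04 and -0.09, beside medians over all miRNAs tested of -0.02, -0.04 and -0.09.

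No member passed the limma test in the comparisons that leave out OVA/OVA. In PBS/OVA against PBS/PBS, OVA/OVA DEX against PBS/PBS and OVA/OVA DEX against PBS/OVA, 0 of 5 passed, where 0.376%, 0% and 2.26% of those tested did. No member had an unadjusted limma p under 0.05 in these 3 comparisons, where 4.51%, 7.14% and 22.2% of those tested did. The exact Mann-Whitney test called 0 in OVA/OVA DEX against PBS/OVA. Against PBS/PBS it could call none, since 2 against 4 arrays without overlap give an exact Mann-Whitney p of 0.133. The members' differences ranged from -0.04 to 0.12 in PBS/OVA against PBS/PBS, from -0.08 to 0.15 in OVA/OVA DEX against PBS/PBS and from -0.11 to 0.18 in OVA/OVA DEX against PBS/OVA.

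These directions depend on how the arrays are put on a common scale. Without scaling, with a percentile of all miRNAs, and with scaling by control spots, the median over all tested miRNAs in OVA/OVA against PBS/PBS became -1.11, -0.56 and -0.70. With these settings the difference of miR-200c-3p between OVA/OVA and PBS/PBS was negative, at -0.74, -0.17 and -0.32. Relative to the median of all miRNAs tested it was higher by 0.38 with each. These settings change each array by 1 factor, so this value could hardly differ between them. With quantile normalization, which is not such a factor, it was higher than the median by 0.64. With the same 3 settings the chromosome 4 members, and no others of the family, passed the test against PBS/PBS, all lower in OVA/OVA. The differences were -1.10, -0.54 and -0.69 for miR-200b-3p, -1.22, -0.66 and -0.81 for miR-200a-3p, and -1.26, -0.70 and -0.85 for miR-429-3p, with limma adjusted p from 0.0200 to 0.0418. miR-200c-3p did not pass in these settings (limma adjusted p = 0.104, 0.420 and 0.205). With control spot scaling these 3 members were lower than in OVA/OVA DEX as well, with differences of -0.71 for miR-200b-3p (limma adjusted p = 0.00458), -0.88 for miR-200a-3p (0.00275) and -0.70 for miR-429-3p (0.00929), while miR-200c-3p, at -0.37, no longer passed (0.0640). With normexp background correction the median became 0.54, and miR-200c-3p, at 0.32, lay below it. Members were therefore also compared with each other on the same array, as a log2 ratio, which needs no scaling between arrays.

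The ratio of miR-200c-3p to miR-200b-3p, the close relatives with a common seed from different clusters, separated OVA/OVA from every other group. It was -0.58 and -0.59 in PBS/PBS, -0.55, -0.48, -0.57 and -0.38 in PBS/OVA, and -0.57, -0.57, -0.48 and -0.64 in OVA/OVA DEX. In OVA/OVA it ranged from -0.36 to -0.11, with a median of -0.22. No OVA/OVA array reached the range of another group. The OVA/OVA mean exceeded that of PBS/PBS by 0.36, that of PBS/OVA by 0.27 and that of OVA/OVA DEX by 0.34. The exact two-sided permutation p was 0.00476 for both PBS/OVA and OVA/OVA DEX, the smallest these numbers of arrays allow, and 0.0357 against PBS/PBS, again the smallest possible. Adjusted over the 18 ratio tests made, these exact values were 0.0286, 0.0286 and 0.0918.

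The ratio of miR-141-3p to miR-200a-3p, the pair with the other seed, moved the same way. It was -0.73 and -0.80 in PBS/PBS, -0.65, -0.49, -0.67 and -0.61 in PBS/OVA, and -0.84, -0.78, -0.75 and -0.93 in OVA/OVA DEX. In OVA/OVA it ranged from -0.55 to -0.03, with a median of -0.35. OVA/OVA lay above all PBS/PBS and OVA/OVA DEX arrays and overlapped 1 PBS/OVA array. The mean was higher in OVA/OVA by 0.47 than in OVA/OVA DEX (exact permutation p = 0.00952, adjusted 0.0429), by 0.41 than in PBS/PBS (exact p = 0.0357, adjusted 0.0918) and by 0.25 than in PBS/OVA (exact p = 0.0476, adjusted 0.0952). On the linear scale these differences are ratios 1.38, 1.33 and 1.19 times as high in OVA/OVA.

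**Figure D3:**
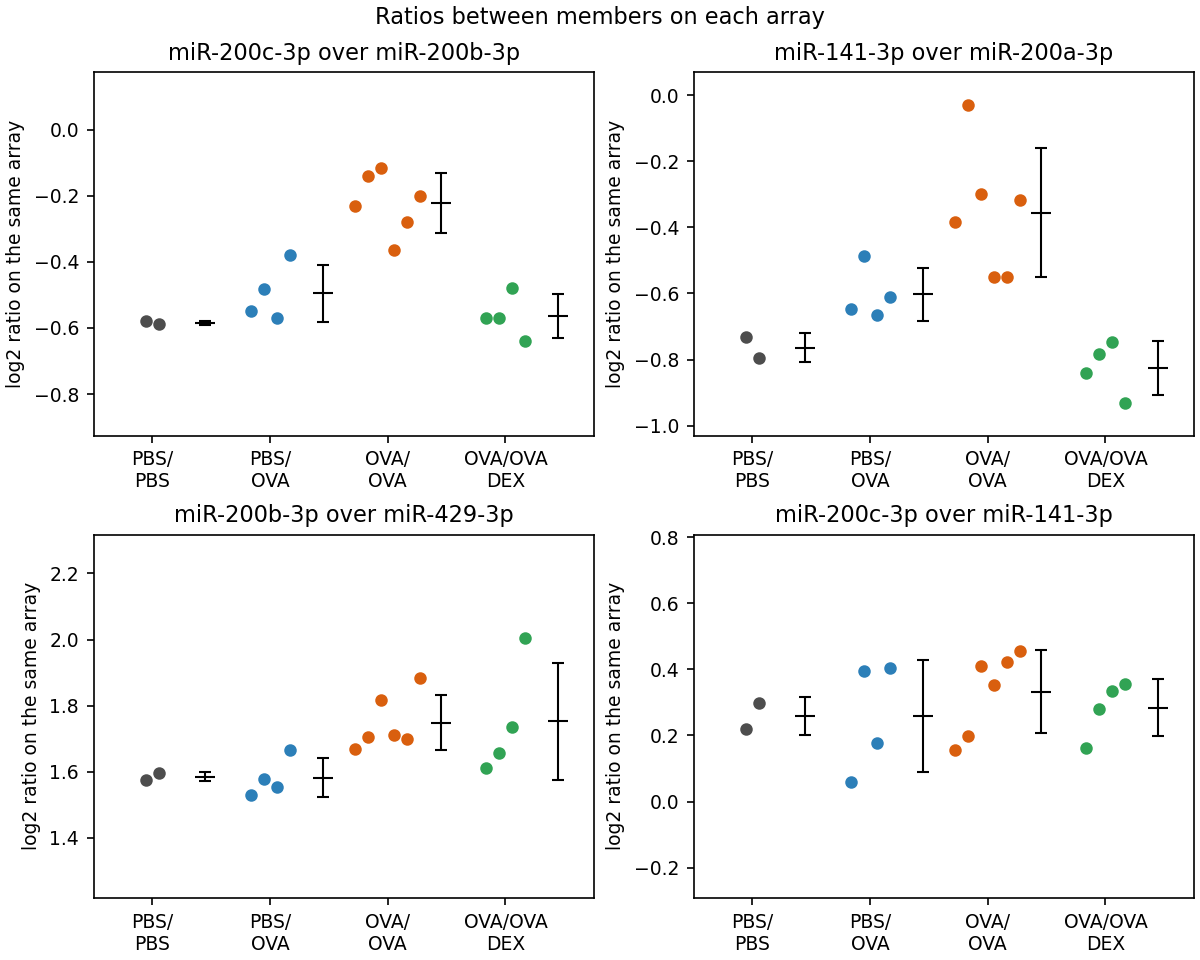
Log2 ratio (y axis) of pairs of members on the same array, by group (x axis). Each point is 1 array, bars show mean ± SD, and every panel spans 1.1 on the log2 scale. In the upper panels, which set a chromosome 6 member over the chromosome 4 member with the same seed, OVA/OVA means were highest (-0.22 and -0.36). PBS/OVA replicate 2 lay within the OVA/OVA range of miR-141-3p over miR-200a-3p. In the lower panels, of members of 1 cluster, OVA/OVA overlapped OVA/OVA DEX. For miR-200b-3p over miR-429-3p it lay above all PBS/PBS and PBS/OVA arrays, and for miR-200c-3p over miR-141-3p it overlapped every group.

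Members of the same cluster were compared in the same way. The ratio of miR-200c-3p to miR-141-3p averaged 0.33 ± 0.13 (SD, n = 6) for OVA/OVA. The other averages were 0.28 ± 0.09 (SD, n = 4) for OVA/OVA DEX, 0.26 ± 0.17 (SD, n = 4) for PBS/OVA and 0.26 ± 0.06 (SD, n = 2) for PBS/PBS. Its 3 tests gave exact permutation p of 0.433 to 0.538, and all groups overlapped. Within the chromosome 4 cluster, the ratio of miR-200b-3p to miR-429-3p was 0.17 higher in OVA/OVA (1.67 to 1.88) than in PBS/OVA (1.53 to 1.67), without overlap (exact permutation p = 0.00476, adjusted 0.0286). It was 0.16 higher than in PBS/PBS, also without overlap, and did not pass (exact permutation p = 0.0714, adjusted 0.129). Against OVA/OVA DEX it differed by -0.00 (exact permutation p = 0.967). The ratios of miR-200b-3p to miR-200a-3p and of miR-200a-3p to miR-429-3p passed in no comparison after adjustment, with the smallest exact permutation p at 0.0476 and 0.0238, both against OVA/OVA DEX. Of the 18 tests, 4 passed: 3 across the clusters and 1 within the chromosome 4 cluster. How often ratios of other miRNA pairs would pass was not tested, so these counts have no share to be set against.

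Slide and array intensity were set beside these ratios. On slide 1, miR-200c-3p over miR-200b-3p exceeded PBS/PBS in OVA/OVA by 0.40, PBS/OVA by 0.34 and OVA/OVA DEX by 0.42, and on slide 2 it was higher by 0.23 and 0.28 than in the latter groups. miR-141-3p over miR-200a-3p was higher by 0.56, 0.37 and 0.68 on slide 1 and by 0.20 and 0.34 on slide 2. With array intensity as a covariate, an alternative for the ratios that was chosen once their values were known, the differences of the first ratio became 0.25 from PBS/PBS, 0.22 from PBS/OVA and 0.31 from OVA/OVA DEX, and those of the second 0.30, 0.20 and 0.44 in this order. Both PBS/PBS arrays were brighter than every other array, so the values from PBS/PBS extrapolate beyond the intensities shared with OVA/OVA. The brightest OVA/OVA arrays, replicates 1 and 4 with percentiles of 2300 and 2375, had first ratios of -0.23 and -0.36 and second ratios of -0.38 and -0.55. The dimmest, replicates 3 and 6 with 888 and 814, had first ratios of -0.11 and -0.20 and second ratios of -0.30 and -0.32. Replicate 5, with 1110, had ratios of -0.28 and -0.55, and replicate 2, with 1346, had ratios of -0.14 and -0.03. All 6 OVA/OVA arrays lay above every OVA/OVA DEX array in both ratios. The part of array intensity in the size of these differences was not tested further.

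Each member was read by 2 probes, and the probes can be compared as separate readings of the same arrays. In 14 of the 15 combinations of member and comparison with OVA/OVA, both probes gave a difference of the same sign. The exception was miR-200b-3p against PBS/PBS, with -0.01 and 0.00. For miR-200c-3p the probes gave 0.40 and 0.34 against PBS/PBS and 0.24 and 0.26 against OVA/OVA DEX. For miR-141-3p they gave 0.32 and 0.28 against PBS/PBS and 0.11 and 0.24 against OVA/OVA DEX, and for miR-200a-3p they gave -0.22 and -0.37 against OVA/OVA DEX.

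Of the other arms of the same hairpins, 4 were on the array. miR-141-5p was the only one detected on all arrays, and with the scaling used it had the direction of miR-141-3p (its difference from OVA/OVA DEX was -0.16 with control spot scaling, and that from PBS/PBS was negative with each other scaling except normexp). Its log2 signal was 5.05 and 5.11 in PBS/PBS, 5.02, 5.14, 5.04 and 5.35 in PBS/OVA, 5.09 to 5.69 with a median of 5.52 in OVA/OVA, and 5.18, 5.12, 5.26 and 4.48 in OVA/OVA DEX. OVA/OVA overlapped each group at its lower end. It rose by 0.46 ± 0.15 (SE) in OVA/OVA against OVA/OVA DEX (limma adjusted p = 0.0224), and differed by 0.39 ± 0.19 (SE, adjusted p = 0.145) from PBS/PBS and by 0.33 ± 0.15 (SE, adjusted p = 0.109) from PBS/OVA. miR-200b-5p and miR-200a-5p, from the chromosome 4 cluster, were detected on all PBS/PBS arrays but on 3 and 1 of the 6 OVA/OVA arrays. They were detected on 4 and 3 of the 4 PBS/OVA arrays, and on 4 and 1 of the 4 OVA/OVA DEX arrays. Both were dim, with log2 signals of at most 4.68. PBS/PBS arrays were the brightest, and the miR-200b-5p value at the floor was on OVA/OVA replicate 6, the dimmest array. The differences of miR-200b-5p and miR-200a-5p against OVA/OVA DEX were -1.02 ± 0.57 (SE, adjusted p = 0.143) and -0.19 ± 0.31 (SE, adjusted p = 0.630). Those from PBS/PBS (-1.36 and -0.50) and from PBS/OVA (-1.25 and -0.32) did not pass either. miR-200c-5p was detected on 0 arrays.

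Other miRNAs known from epithelial cells were set beside the family. Of 6 on the array, 0 were higher in OVA/OVA than in any other group, while 2 were lower than PBS/PBS, 4 lower than PBS/OVA and 5 lower than OVA/OVA DEX, by the limma test (12.4%, 16.9% and 32.3% of all tested were lower). With normexp background correction this direction turned, and the median of the 6 became 0.33, 0.13 and 0.07, still below the medians of all tested. With the scaling used, miR-203-3p, which promotes differentiation of stratified epithelium, fell in all 3 comparisons, by 0.53, 0.34 and 0.32 on the log2 scale (limma adjusted p = 0.00435, 0.00927 and 0.00768). miR-31-5p fell in all 3 as well, by 0.35, 0.40 and 0.24 (limma adjusted p = 0.0311, 0.00305 and 0.0268). miR-183-5p and miR-96-5p, which are transcribed together and are abundant in sensory epithelium, passed against PBS/OVA (-0.48 and -0.30) and OVA/OVA DEX (-0.40 and -0.34), and miR-375-3p, a miRNA of neuroendocrine and secretory cells, against OVA/OVA DEX (-0.27). With the scaling used, the median over the 6 was -0.35, -0.37 and -0.33, against -0.02, -0.04 and -0.09 over all tested. Their summed scaled signal was 569 to 697 in OVA/OVA. It was 774 to 784 for PBS/PBS, 773 to 792 for PBS/OVA and 696 to 890 for OVA/OVA DEX. That of the miR-200 family was 9087 to 9744 in OVA/OVA, and 8958 to 8981, 8962 to 9502 and 8543 to 10412 in those groups.

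**Figure D4:**
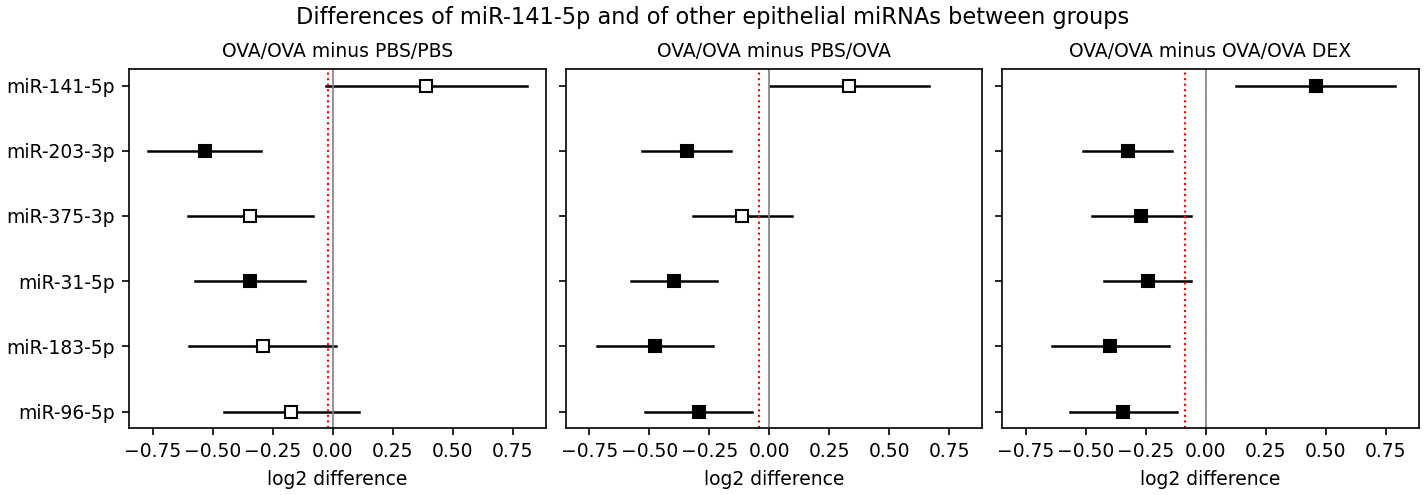
Log2 difference (x axis) of miR-141-5p and of 5 other epithelial miRNAs between OVA/OVA and the other groups. Squares are limma estimates, filled where the adjusted p is under 0.05, lines are 95% confidence intervals and the red dotted line is the median of all miRNAs tested. miR-203-3p (-0.53, -0.34 and -0.32) and miR-31-5p lay below 0 in all panels, and miR-141-5p above 0. With normexp background correction miR-203-3p and miR-31-5p were above 0. miR-182-5p, detected on fewer arrays, is not drawn.

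miRNAs typical of other lung cells moved in the same comparisons. Of 6 haematopoietic miRNAs, in OVA/OVA 4 exceeded PBS/PBS, 6 exceeded PBS/OVA and 5 exceeded OVA/OVA DEX, and 0 were lower (13.2%, 14.7% and 21.1% of all tested were higher). The median of these 6 stayed above 0 with each scaling except without scaling against PBS/PBS, where it was -0.40. miR-155-5p, induced on activation of lymphocytes and macrophages, led with 1.99, 1.87 and 2.60. The summed scaled signal of the haematopoietic list was 33102 to 48821 in OVA/OVA and 16381 to 27225 over the other groups, and all 6 were detected. Of 6 tested miRNAs of ciliated epithelium, 3 were lower in OVA/OVA than in PBS/PBS (12.4% of all tested were), and 0 passed against PBS/OVA. Against OVA/OVA DEX, 2 were higher and 3 lower in OVA/OVA (21.1% and 32.3% of all tested were). miR-449a-5p, at 2.04, was higher with each scaling tried. miR-449c-5p was detected on all 6 OVA/OVA arrays and on 0 of the 4 OVA/OVA DEX arrays. It was also detected on 2 PBS/PBS and 4 PBS/OVA arrays, and its lowest OVA/OVA value was at the floor of 0.77. miR-34c-3p differed from OVA/OVA DEX by -0.97, a direction that turned with normexp background correction (0.06). The summed signal of this list overlapped in all groups (3641 to 5406 over the 16 arrays). Both endothelial miR-126 arms were lower in OVA/OVA than in PBS/OVA and in OVA/OVA DEX. So were 1 and 4 of 5 miRNAs of fibroblasts and smooth muscle (16.9% and 32.3% of all tested were lower). Against PBS/PBS, no miRNA of these lists passed. The medians of both lists were negative with each scaling tried. miR-451 and miR-144-3p, of red cells, differed from OVA/OVA DEX by -1.04 and -1.06 (32.3% of all tested were lower). Neither passed against PBS/PBS or PBS/OVA. OVA/OVA DEX itself exceeded PBS/OVA by 0.62 and 0.68 for them, which did not pass (limma adjusted p = 0.131 for each). The part of these other changes in the levels of the miR-200 family was not tested.

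**Figure D5:**
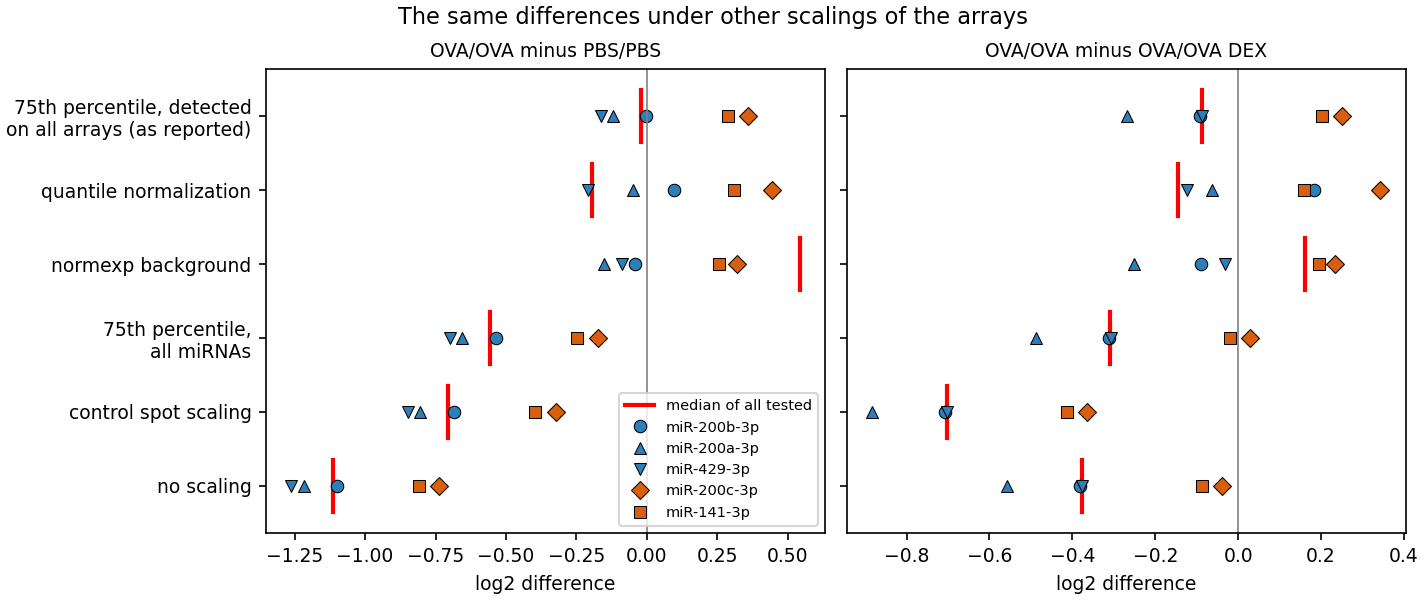
Log2 difference (x axis) of the 5 miR-200 family members in OVA/OVA against PBS/PBS (left) and OVA/OVA DEX (right), under 6 ways of putting the arrays on 1 scale (rows). Orange symbols are the chromosome 6 members, blue symbols the chromosome 4 members, and the red bar is the median of all miRNAs tested. The whole family shifted with the scaling. With every setting miR-200c-3p lay to the right of all chromosome 4 members, and miR-141-3p did so with all except quantile normalization against OVA/OVA DEX. Only quantile normalization and normexp could change this order, since the other settings differ by 1 factor per array.

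The miRNAs whose log2 signal over the 16 arrays was most like the mean of the 5 family members were miR-22-3p (Pearson r = 0.89), miR-744-5p (0.73), miR-652-3p (0.71), miR-466g (0.69) and miR-466f-3p (0.64). The least like were miR-322-5p, miR-322-3p and miR-542-3p, with r of -0.34, -0.34 and -0.32. These are descriptions over arrays that share groups, slides and intensity. The mean of the family varied little, between 10.58 and 10.90 over the 16 arrays, and both of these were OVA/OVA DEX arrays. miR-466g was detected on 10 of the arrays and miR-322-3p on 13.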

How the data were processed

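For each of 16 arrays the authors deposited scanner output of Agilent Feature Extraction 10.7.3.1, in which a spot's intensity is corrected for background and the arrays are not normalized to each other. A table of log2 values deposited by the authors, of unstated scaling, was matched to 161 miRNAs within 0.15 and used as an alternative only. Of 13000 spots, 0 were saturated, and 336 to 481 outlier spots per array were left out. Spots of a probe were averaged, probes of a miRNA summed, arrays divided by their 75th percentile over miRNAs detected on all arrays, signals below 1.71 set to that floor, and log2 taken.

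A linear model of the 4 groups was fitted in limma 3.58.1 (R 4.3.3). P-values were adjusted by Benjamini-Hochberg over 266 miRNAs, those that some group had detected on each of its arrays. The methods of the study name the Mann-Whitney test, which was an alternative: its exact two-sided p cannot go below 0.0714 for 2 against 6 arrays. Ratios of members on the same array were compared by exact two-sided permutation tests. The ratio to miR-205-5p had been planned and was not run, since miR-205-5p was detected on 1 array. All members were to be named, with the other arms of their hairpins, other epithelial miRNAs, up to 3 examples of each cell type list, and the 5 miRNAs most and 3 least correlated with the family mean. The members and lists were chosen with earlier results of these data known. In simulated arrays with changes in 50 of 266 miRNAs, the fit recovered 72% of them for PBS/PBS, 76% for PBS/OVA and 70% for OVA/OVA DEX as the group OVA/OVA was set against. Those recovered numbered 36, 38 and 35, and 25, 25 and 23 of them had a size of 1 or more on the log2 scale. Recovery at the smaller size of the miR-200 family's differences was not tested separately. Alternatives were other scalings, background corrections, probe summaries, detection filters, floors and variance models, slide or replicate number as a block, array intensity as a covariate, each slide alone, and each array left out. Python 3.11.15 was used for other steps.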

Additional observations from a re-analysis of the deposited data

Results flagged for a closer look

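Among 33 sets of values (members and ratios within groups of 4 to 6 arrays), 2 held an array set apart from the rest of its group, where chance gives about 1 in 20. The log2 signal of miR-200b-3p was 11.29 in PBS/OVA replicate 1, against 11.37 to 11.39 on the other arrays of the group. The log2 ratio of miR-200b-3p to miR-200a-3p was -0.11 in OVA/OVA DEX replicate 1, against 0.06 to 0.07 on the other arrays of the group.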

How the results depend on the processing

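Over the alternatives, the number of the 5 members with an adjusted p under 0.05 in OVA/OVA against PBS/PBS (1 as reported) was 3 with no scaling, control spot scaling or the percentile over all miRNAs (the chromosome 4 members, all lower, without miR-200c-3p), 2 over miRNAs detected on all 16 arrays or with trended and robust variances, and 0 with the deposited processed values, the intensity covariate, the exact Mann-Whitney test or slide 1 alone. For PBS/OVA (1 as reported) it was 3 with control spot scaling (the chromosome 4 members, lower), 2 with quantile normalization, and 0 without scaling, with the percentile over all miRNAs, with normexp, with the deposited processed values, with the intensity covariate or on slide 1 or slide 2 alone. It stayed at 1 with the Mann-Whitney test and with only the compared groups fitted, where miR-429-3p passed in place of miR-200c-3p. Against OVA/OVA DEX (2 as reported) it was 1 with the percentile over all miRNAs, quantile normalization, normexp or the deposited processed values, and 0 without scaling or on slide 1 or slide 2 alone. There it was 3 with control spot scaling (the chromosome 4 members, lower), and 3 with no floor, over miRNAs detected on all arrays or with trended and robust variances, where miR-141-3p was added. At 2-fold, 3 members were called against PBS/PBS without scaling. Leaving out 1 array gave 0 to 2, 0 to 2 and 2 to 3 members. The cause of these changes was not tested, except that single slides hold fewer arrays.

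In values given in the order PBS/PBS, PBS/OVA, OVA/OVA DEX, the sign of miR-200c-3p turned without scaling (-0.74, -0.28 and -0.040), with control spot scaling (-0.32, -0.34 and -0.37) and, against the first 2, with the percentile over all miRNAs (-0.17 and -0.0029). That of miR-141-3p turned with the same settings (-0.81, -0.35 and -0.088; -0.40, -0.41 and -0.41; -0.25, -0.076 and -0.019). That of miR-200b-3p turned with quantile normalization (0.10, 0.10 and 0.18), on slide 2 alone (0.022 against PBS/OVA) and with 1 array left out against PBS/PBS (-0.021 to 0.027). In the comparisons without OVA/OVA, 0 of 545 values of members passed under any alternative, and 40 had the opposite sign. Among these, the exact Mann-Whitney values against PBS/PBS could not pass.

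Of the ratios, miR-200b-3p to miR-429-3p against PBS/OVA no longer passed with normexp (0.077) or deposited values (0.13), miR-141-3p to miR-200a-3p against OVA/OVA DEX with normexp (0.45), and miR-200c-3p to miR-200b-3p against PBS/OVA with deposited values (0.31). Signs turned for miR-200a-3p to miR-429-3p against PBS/PBS with normexp (-0.063), and for miR-200b-3p to miR-429-3p against OVA/OVA DEX with deposited values (0.0083) and on slide 2 (0.082). They also turned for miR-200b-3p to miR-200a-3p against PBS/OVA on slide 1 (-0.081) and, with the intensity covariate (added for the ratios after seeing the data), against PBS/PBS and PBS/OVA (-0.041 and -0.028). miR-200c-3p to miR-141-3p turned on slide 1 (-0.083, -0.11 and -0.084) and with the covariate against PBS/PBS and PBS/OVA (-0.091 and -0.0042). On slide 1, the differences from OVA/OVA DEX moved to -0.30 for miR-200a-3p to miR-429-3p and 0.68 for miR-141-3p to miR-200a-3p. With the covariate, those from PBS/PBS, whose arrays were brighter than all others, moved to 0.048 for miR-200b-3p to miR-429-3p and 0.25 for miR-200c-3p to miR-200b-3p. With 1 array left out, the 4 passing ratios ranged over 0.25 to 0.31 and 0.32 to 0.37 (miR-200c-3p to miR-200b-3p, against PBS/OVA and OVA/OVA DEX), 0.40 to 0.51 (miR-141-3p to miR-200a-3p) and 0.14 to 0.19 (miR-200b-3p to miR-429-3p). They kept an adjusted exact p under 0.05 in 7, 6, 6 and 9 of 16 such fits, where fewer arrays raise the smallest possible p. Against OVA/OVA DEX, miR-200a-3p to miR-429-3p (-0.23 to -0.11) and miR-200b-3p to miR-200a-3p (0.13 to 0.22) passed in some of these fits, and miR-200b-3p to miR-429-3p changed sign (-0.051 to 0.080), as did miR-200b-3p to miR-200a-3p against PBS/OVA (-0.017 to 0.13).

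The replicate numbers did not pair the arrays: deviations of same-numbered arrays correlated at -0.78 to 0.41. With replicate number as a block, 0, 0 and 1 members passed, in the same order, with differences of miR-200c-3p of 0.32, 0.21 and 0.22 and of miR-200a-3p against OVA/OVA DEX of -0.28. The planned ratio to miR-205-5p was not run, as that miRNA was not detected on 15 of 16 arrays. Array number and signal over background limit what can be seen here.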
